A study of Rattus norvegicus with 18 samples.

Results

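The fatty acid omega-hydroxylases Cyp4a1, Cyp4a2, Cyp4a3 and Cyp4a8, the acyl-CoA thioesterases Acot1, Acot2 and Acot3, and the pantetheinase Vnn1 were examined in rat liver under 3 diets. They were taken as the probe sets whose platform gene symbol is one of these 8 names, and where a gene had several, the set with the highest mean signal on the 18 arrays stood for it. Of the 8 genes, 7 had a probe set of their own, out of 14217 genes measured. Cyp4a2 was read only by a set that it shares with Cyp4a3. In all, 12 of the 31099 probe sets on the array carried these names, and a second shared set read Acot2 together with Acot1. Livers came from adult male Sprague Dawley rats that were given their diet for 8 weeks, with free access to food and water, and were then fasted overnight before death. The chow group received chow alone and its livers were labelled normal. The HFD group received a high fat diet and its livers were labelled fatty. The HFD+PE group received the high fat diet together with pomegranate skin extract at 150 mg/kg/d, and its livers were labelled normal. The sources used here do not give the composition of the diets or of the extract, and no group received the extract on chow. Each group had 6 Affymetrix arrays, on which the signal of a probe set is given as a log2 value.

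Omega-oxidation begins in the endoplasmic reticulum, where Cyp4a P450 enzymes hydroxylate the terminal carbon of a fatty acid. Alcohol and aldehyde dehydrogenases then turn the product into a dicarboxylic acid, which is shortened mainly in peroxisomes. Acyl-CoA thioesterases split an acyl-CoA into free fatty acid and coenzyme A: Acot1 in the cytosol, Acot2 in mitochondria and Acot3 in peroxisomes. Vnn1 is a membrane-anchored ectoenzyme that splits pantetheine, a breakdown product of coenzyme A, into pantothenate and cysteamine. In rodent liver several of these genes are known as targets of PPAR-alpha, a nuclear receptor activated by fatty acids. Many of its target genes are induced by fasting.

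Cyp4a8, Cyp4a2, Cyp4a3 and Cyp4a1 lie in that order, with Cyp4a2l1 between Cyp4a2 and Cyp4a3, in a cluster on chromosome 5 of GRCr8 that is flanked by Cyp4x1 and Cyp4b1. On chromosome 6, Acot2 and Acot1 are neighbours, and Acot3 lies between Acot4 and Acot5. Vnn1 is on chromosome 1, next to Vnn3. RefSeq's table of this build held promoters of 6 of the 8 genes. Those of the Cyp4a genes are shown because these genes lie in the same cluster. Any relation of the promoter sequences to the levels measured was not tested. Each is the 250 bases before the annotated start, 5′ to 3′ on the gene's strand, and capitals mark the nuclear receptor half-site AGGTCA, searched on both strands. The Cyp4a2 promoter is chr5:134170909-134171158, that of Cyp4a3 is chr5:134352237-134352486 and that of Cyp4a8 is chr5:133970227-133970476, all on the minus strand.
Cyp4a2: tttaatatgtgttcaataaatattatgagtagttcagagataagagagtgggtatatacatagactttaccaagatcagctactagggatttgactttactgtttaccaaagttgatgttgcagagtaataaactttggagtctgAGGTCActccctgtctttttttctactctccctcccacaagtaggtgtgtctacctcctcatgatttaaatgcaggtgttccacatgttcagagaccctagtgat
Cyp4a3: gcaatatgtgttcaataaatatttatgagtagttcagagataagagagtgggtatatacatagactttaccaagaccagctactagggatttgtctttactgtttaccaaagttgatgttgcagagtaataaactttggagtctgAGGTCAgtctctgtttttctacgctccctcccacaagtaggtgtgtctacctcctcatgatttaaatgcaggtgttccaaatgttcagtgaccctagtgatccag
Cyp4a8: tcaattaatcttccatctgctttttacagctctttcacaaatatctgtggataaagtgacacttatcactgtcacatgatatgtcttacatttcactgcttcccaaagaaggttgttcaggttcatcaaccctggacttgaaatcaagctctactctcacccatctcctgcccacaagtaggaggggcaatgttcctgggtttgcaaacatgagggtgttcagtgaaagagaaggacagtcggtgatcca
The first 2 were identical at 236 of 255 aligned columns, or 92.6%, and each held 1 half-site. The Cyp4a8 promoter was 57.4% identical to that of Cyp4a2 and 59.9% to that of Cyp4a3, and held none of these letters in this window. Nor did the windows of Acot1, Acot2 and Acot3, of which those of the neighbours Acot1 and Acot2 were 48.7% identical. Between a Cyp4a and an Acot gene, aligned the same way, identity ran from 49.5% to 53.3%. At least 1 half-site was found in 14.1% of all 33469 promoters of this length. A match of letters is a description of the sequence and not a measured binding site.

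Several features of the arrays bear on what follows. Arrays 3 and 4 of chow, 1 and 2 of HFD, and 3 and 4 of HFD+PE formed 3 pairs without any difference above 2 on the log2 scale, whereas each of the other 150 pairs had 18 to 109 such probe sets. By the share of equal values only the HFD pair stood apart, at 42.9%. That share was 20.2% for the chow pair, 18.1% for the HFD+PE pair and 11.8% to 20.9% for the other pairs. Differences between paired arrays had an SD of 0.117 in HFD and 0.215 in chow, both below the 0.260 to 0.407 of the other pairs. In HFD+PE the SD was 0.260, within that range. Although the labels call them biological replicates, each of the 3 pairs was averaged and counted as 1 animal, which gave 5 animals per group, and whether the chow and HFD+PE pairs are 1 animal each is not settled. Hybridisation spike-in controls were bright on 3 chow arrays, no HFD array and 2 HFD+PE arrays. The 3′ minus 5′ signal of the GAPDH control sets, a measure of RNA quality, had medians of 2.6 in chow, 3.0 in HFD and 3.0 in HFD+PE, with overlapping ranges. Hepatocyte markers averaged 13.7 to 14.0 on the log2 scale in every animal and kidney markers, a tissue that also expresses Cyp4a genes, 3.8 to 4.0. Markers of macrophages and Kupffer cells moved with the diets: the mean of the 8 measured of 10 listed was 8.08 to 9.10 in chow, 7.51 to 8.36 in HFD and 7.05 to 8.04 in HFD+PE. In bulk liver, fewer cells of a type and less RNA per cell cannot be told apart.

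The mean levels of these genes did not all change in the same direction in any of the 3 comparisons of diets, and a shared change was not tested. Vnn1 was highest and Cyp4a8 lowest in the HFD+PE animals, while Cyp4a1, Cyp4a3 and the 3 thioesterases overlapped across all 3 diets. No gene on the array passed an adjusted p of 0.05 in any comparison (limma, Benjamini-Hochberg over 14217 genes). This rests on the counting of arrays: with the HFD pair alone averaged, 134 genes passed between HFD+PE and chow, and with 18 arrays as separate animals 145 did, Vnn1 among them both times. At an unadjusted p under 0.05, 1 of the 7 genes with a set of their own differed between HFD and chow, against 7.65% of all genes. For HFD+PE against HFD it was also 1 of 7, against 2.7% of all genes, and between HFD+PE and chow it was 2 of 7, against 11.1%. The F test over all 3 diets called 2 of 7, Vnn1 and Cyp4a8, against 8.14%. None of the 7 separated HFD from chow without overlap, as 0.309% of all genes did upward and 0.211% downward, nor HFD+PE from HFD, as 0.0774% did upward and 0.0563% downward. The median change of the 7 genes was -0.06, 0.10 and -0.03 in these 3 comparisons, and that of all genes was 0, 0 and 0.01. The comparisons share animals, so their changes are not independent of each other.

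**Figure D1:**
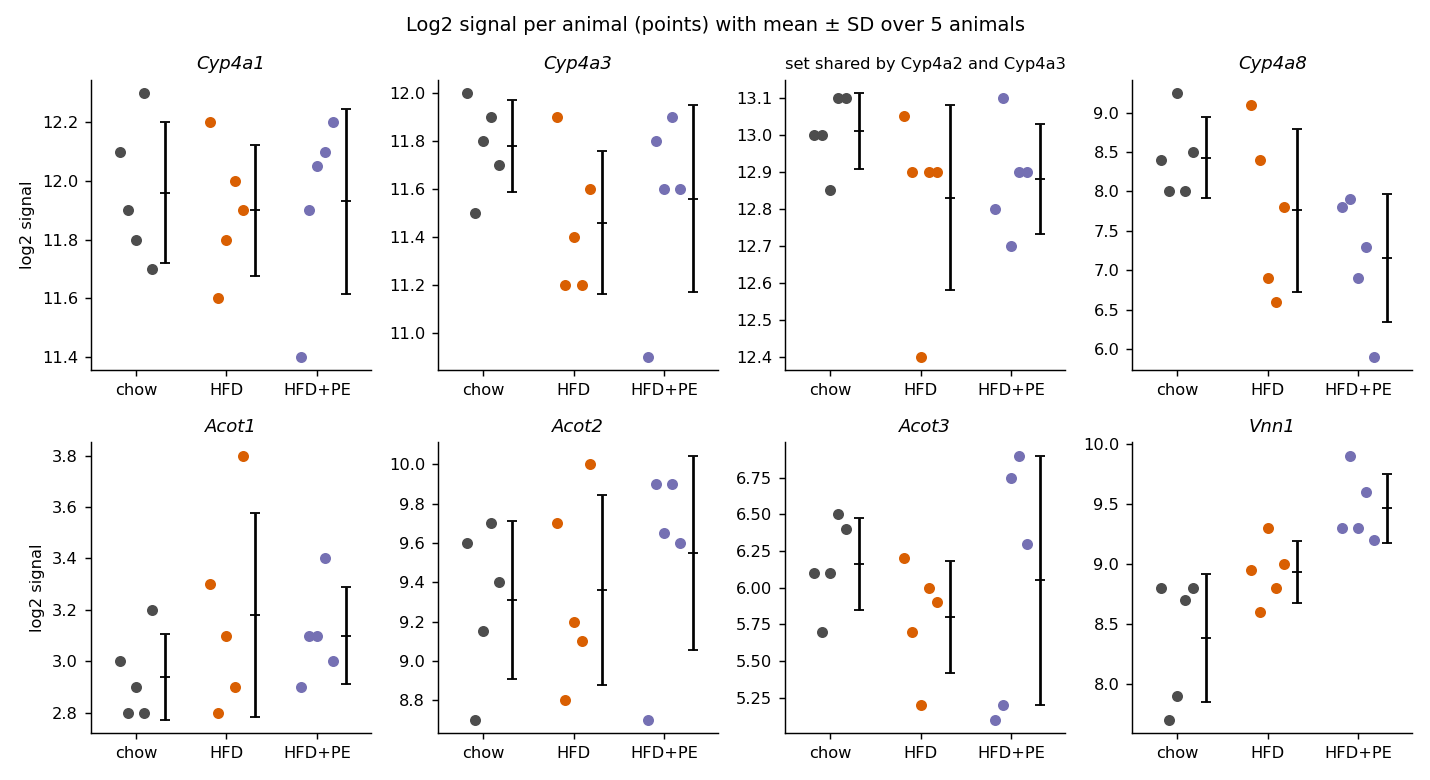
Log2 signal of each gene and of the set shared by Cyp4a2 and Cyp4a3, with 1 point per animal, by diet group, and the mean ± SD over 5 animals beside the points. Each panel has its own vertical range. Vnn1 in HFD+PE (9.2 to 9.9) lies above all chow animals (7.7 to 8.8), and Cyp4a8 in HFD+PE (5.9 to 7.9) lies below all chow animals (8.0 to 9.25).

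Among the omega-hydroxylases, the set labelled Cyp4a1 was bright and nearly level across diets. It read 12.1, 11.9, 11.8, 12.3 and 11.7 in the chow animals, 12.2, 11.6, 11.8, 12.0 and 11.9 in HFD, and 11.4, 11.9, 12.05, 12.1 and 12.2 in HFD+PE. The groups overlapped throughout, and the lowest animal of all was an HFD+PE animal. The means were 11.96 ± 0.24 (SD, n = 5), 11.90 ± 0.22 and 11.93 ± 0.32, and the 95% confidence interval of the change from chow to HFD ran from -0.38 to 0.26. The identity of this set is unsettled: the platform names it Cyp4a1, but RefSeq lists the accession given for it under the neighbour Cyp4b1, which has a set of its own. Over 15 animals with group means removed, it correlated at r = 0.74 with the Cyp4a3 set and at -0.04 with the Cyp4b1 set.

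Cyp4a3, an omega-hydroxylase closely related to Cyp4a2, read 12.0, 11.5, 11.8, 11.9 and 11.7 in chow. The HFD animals read 11.9, 11.2, 11.4, 11.2 and 11.6, and the HFD+PE animals 10.9, 11.8, 11.6, 11.9 and 11.6. Of the 5 HFD animals, 4 were below the chow mean, but the groups overlapped. The change from chow to HFD was -0.32 (SE 0.17, unadjusted p = 0.0813, adjusted p = 0.687 by limma), and from HFD to HFD+PE it was 0.10 (SE 0.17). With the brightness class of the spike-in controls in the model the first change was -0.51 (unadjusted p = 0.0132), and it had an unadjusted p under 0.05 in 6 of 27 limma settings. The set shared by Cyp4a2 and Cyp4a3 read 12.85 to 13.1 in chow, 12.4 to 13.05 in HFD and 12.7 to 13.1 in HFD+PE. Its change from chow to HFD was -0.18 (SE 0.11), and 1 HFD animal, at 12.4, stood below the other 4. With both genes on it, this set gives no level of Cyp4a2 alone, and it correlated with the Cyp4a3 set at only r = 0.31 within groups.

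Cyp4a8, the remaining omega-hydroxylase, had the lowest levels in the animals given the extract. Chow animals read 8.4, 8.0, 9.25, 8.0 and 8.5, HFD animals 9.1, 8.4, 6.9, 6.6 and 7.8, and HFD+PE animals 7.8, 7.9, 6.9, 7.3 and 5.9. All 5 HFD+PE animals were below all 5 chow animals, while the HFD animals spread over both ranges, 5.66-fold from lowest to highest. The HFD+PE mean was 2.41-fold lower than chow, a log2 change of -1.27 (SE 0.44, 95% confidence interval -2.20 to -0.34, unadjusted p = 0.0107, adjusted p = 0.275 by limma). Absence of overlap in this direction was seen for 0.732% of all genes. Such absence fixes the two-sided exact permutation p at 0.00794, the smallest that 5 against 5 animals allow. The steps from chow to HFD, -0.67 (SE 0.44), and from HFD to HFD+PE, -0.60 (SE 0.44), had unadjusted p of 0.148 and 0.193. With 1 animal left out, the first ran from -1.005 without HFD 1-2 (unadjusted p = 0.0263) to -0.38 without HFD 5, and the second from -0.89 without HFD 5 to -0.27 without HFD 1-2. With a replicate block over 18 arrays the second was -0.87 (unadjusted p = 0.0396). A second Cyp4a8 set tracked the first at r = 0.99 over 15 animals and differed by -1.12 (SE 0.42) between HFD+PE and chow. Among the arrays with bright spike-in controls the change was -1.22 over 3 chow and 2 HFD+PE arrays, and among the dim ones it was -1.57 over 3 and 4. The chow 3-4 and HFD+PE 3-4 pairs each have 1 array in either class, so the classes share animals if these pairs do. Pooled within groups, the SD of Cyp4a8 was 0.82, and 99.4% of all genes had a lower one.

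**Figure D2:**
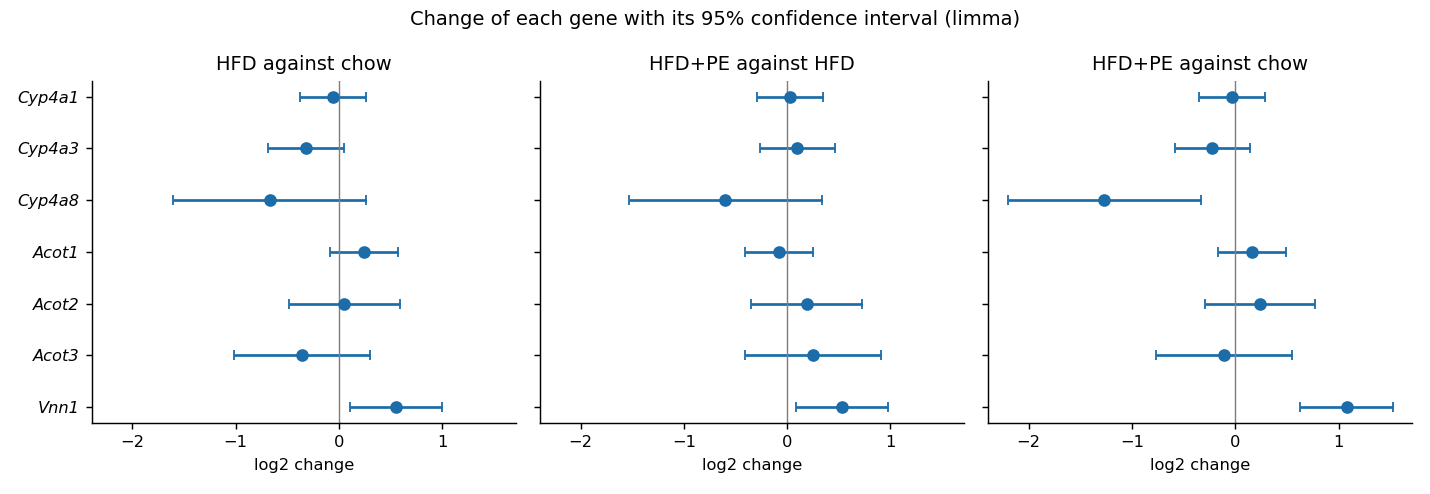
Log2 change of each gene with a set of its own (point) and its 95% confidence interval (bar, limma), in 3 comparisons of 5 against 5 animals. Between HFD+PE and chow, the interval of Vnn1 runs from 0.63 to 1.53 and that of Cyp4a8 from -2.20 to -0.34, and the other 5 include 0.

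The thioesterases overlapped between diets. Acot2, the mitochondrial enzyme, read 9.6, 8.7, 9.15, 9.7 and 9.4 in chow, 9.7, 8.8, 9.2, 9.1 and 10 in HFD, and 8.7, 9.9, 9.65, 9.9 and 9.6 in HFD+PE. Of the HFD+PE animals, 4 lay at 9.6 or above and the first stood apart at 8.7. The change between HFD+PE and chow was 0.24 (SE 0.25, 95% confidence interval -0.30 to 0.78). It was 0.48 (unadjusted p = 0.0199 by limma) with the GAPDH 3′ minus 5′ signal as a covariate, 0.45 (unadjusted p = 0.063) without HFD+PE 1 and 0.09 without chow 2. From chow to HFD it was 0.05 (SE 0.25), and there the 2 other sets of Acot2 had the opposite sign, at -0.09 and -0.06. Across animals the 3 Acot2 sets varied together, with r of 0.81 to 0.91.

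Acot1, the cytosolic enzyme, was dim, from 2.8 to 3.8 on arrays whose median set lay at 5.4 to 5.5. Its mean was 2.94 ± 0.17 in chow, 3.18 ± 0.40 in HFD and 3.10 ± 0.19 in HFD+PE (SD, n = 5), and the highest value, 3.8, was that of a single HFD animal. Its changes against chow were 0.24 and 0.16 (SE 0.16). The set shared with Acot2 read 5.4 to 6.4 in chow, 5.3 to 6.6 in HFD and 5.5 to 6.3 in HFD+PE, and changed by -0.12 (SE 0.25) from chow to HFD.

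Acot3, the peroxisomal enzyme, read 6.1, 5.7, 6.1, 6.5 and 6.4 in chow and 6.2, 5.7, 5.2, 6.0 and 5.9 in HFD. In HFD+PE it read 5.1, 5.2, 6.75, 6.9 and 6.3, so that 2 animals were at or below the lowest HFD animal and 2 were above every animal of the other groups. The HFD+PE group therefore had an SD of 0.85, against 0.31 in chow and 0.38 in HFD, and its mean changed from chow by only -0.11 (SE 0.31, 95% confidence interval -0.77 to 0.55).

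Vnn1, the pantetheinase, had its lowest mean in chow (8.38 ± 0.54, SD, n = 5), a higher one in HFD (8.93 ± 0.26) and the highest in HFD+PE (9.46 ± 0.29), and no difference passed the adjusted threshold over 15 animals. Chow animals read 8.8, 7.7, 7.9, 8.7 and 8.8, HFD animals 8.95, 8.6, 9.3, 8.8 and 9.0, and HFD+PE animals 9.3, 9.9, 9.3, 9.6 and 9.2. Neighbouring groups overlapped, and all 5 HFD+PE animals were above all 5 chow animals, as for 0.682% of all genes in this direction. HFD+PE was 2.11-fold higher than chow, a log2 change of 1.08 (SE 0.21, unadjusted p = 9.85e-05, adjusted p = 0.104 by limma). By unadjusted p Vnn1 was number 12 of 14217 genes, and no gene had a smaller adjusted p in this comparison. With the HFD pair alone averaged, the change was 1.13 (SE 0.19, adjusted p = 0.016 by limma), and with 18 arrays as separate animals it was 1.13 (adjusted p = 0.0148). The two-sided exact permutation p was 0.00794, the smallest possible, a value that absence of overlap fixes.

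Each diet step of Vnn1 was smaller. From chow to HFD the change was 0.55 (SE 0.21, unadjusted p = 0.0193, adjusted p = 0.572 by limma), with an exact permutation p of 0.0873. From HFD to HFD+PE it was 0.53 (SE 0.21, unadjusted p = 0.0234, adjusted p = 0.993 by limma), with an exact permutation p of 0.0317. The chow group held 2 low animals, at 7.7 and 7.9; the change from chow to HFD was 0.38 (unadjusted p = 0.0663 by limma) without chow 2 and 0.43 (unadjusted p = 0.0618) without chow 3-4, and with the brightness class of the spike-in controls in the model it was 0.34 (unadjusted p = 0.159). Against chow, Vnn1 in HFD+PE changed by 1.0 among arrays with dim spike-in controls and 1.20 among those with bright ones. The macrophage markers had the opposite order of means, and their part in the Vnn1 values was not tested. Adding the GAPDH 3′ minus 5′ signal as a covariate gave 1.16 between HFD+PE and chow.

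Apart from diet, several of these genes varied together from animal to animal. After each group mean was removed, Cyp4a3 and Acot2 correlated at Pearson r = 0.89 over 15 animals (permutation p = 0.0005, adjusted over 21 pairs 0.0105) and Spearman rho = 0.88. Without HFD+PE 1 and chow 1, r was 0.84. HFD+PE 1 lay farthest from the median of Cyp4a3, and chow 1 lay as far from it as HFD 3 and HFD 5. These distances were taken before group means were removed. Acot1 and Acot2 correlated at r = 0.72 (permutation p = 0.00386, adjusted 0.0405) and rho = 0.72, and at r = 0.63 without HFD 6 and HFD+PE 5. These were the 2 of 21 pairs that passed by Pearson's r. By Spearman's rho 5 passed, with Cyp4a1 and Cyp4a3 (rho = 0.71), Cyp4a1 and Acot3 (0.72) and Cyp4a3 and Acot1 (0.71) added, each at an adjusted permutation p of 0.0349. Acot1, in some of these pairs, was dim, from 2.8 to 3.8 on arrays whose lowest value was 2.2. Cyp4a1 correlated with Cyp4a3 at r = 0.74, with Acot2 at 0.68 and with Acot3 at 0.63, each with an adjusted permutation p of 0.0639, and without HFD+PE 1 and chow 5 these fell to 0.60, 0.48 and 0.46. Vnn1 correlated best with Acot2, at r = 0.61 (adjusted permutation p = 0.0639). Cyp4a8 correlated with no other gene beyond -0.31 to 0.20.

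Acot2, and by rank Cyp4a3, also varied with RNA quality. Within groups, Acot2 correlated with the GAPDH 3′ minus 5′ signal at r = -0.76 (permutation p = 0.00384, adjusted over 21 relations 0.0403), with rho = -0.77 and r = -0.84 without HFD 6 and chow 3-4. With the beta-actin 3′ minus 5′ signal, Acot2 correlated at r = -0.78 (permutation p = 0.00121, adjusted 0.0254) and rho = -0.73, and at r = -0.67 without HFD 6 and chow 2. Cyp4a3 correlated with the GAPDH measure at r = -0.65 (adjusted permutation p = 0.0619) and rho = -0.73 (adjusted permutation p = 0.038). The other genes also had negative r with both measures, from -0.65 to -0.16, and none of them passed. When the GAPDH measure was removed along with the group means, Cyp4a3 and Acot2 still correlated at r = 0.80 (adjusted permutation p = 0.0172), while Acot1 and Acot2 correlated at 0.54 (adjusted permutation p = 0.166).

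**Figure D3:**
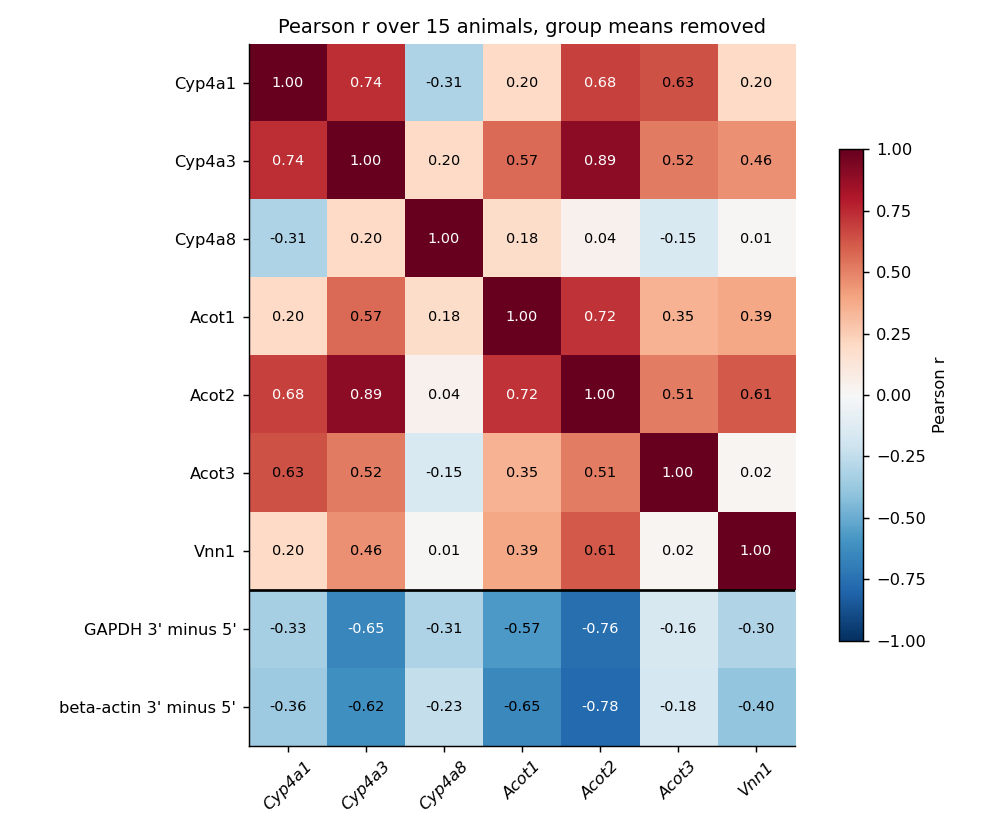
Pearson r over 15 animals between the genes, and between each gene and the 3′ minus 5′ signals of GAPDH and beta-actin, after group means were removed. Cyp4a3 and Acot2 correlate at 0.89, Cyp4a8 stays between -0.31 and 0.20 with the other genes, and Acot2 correlates at -0.76 and -0.78 with the RNA quality measures.

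The genes most like the mean of the 7 standardised genes over 15 animals, with no group mean removed, were Acot4 (r = 0.91), Mospd2 (0.90), Cdca3 (0.85), Ptpn12 (0.83) and Ifngr2 (0.82). These are descriptions with no test, since the 5 were picked for their r among all genes. Without HFD+PE 1 and chow 2, the lowest animals on that mean, they were 0.89, 0.83, 0.76, 0.80 and 0.73. These 2 animals and HFD 3, the next lowest, had the highest GAPDH 3′ minus 5′ signals, at 3.4, 3.2 and 3.2. HFD+PE 5, the highest on that mean, had 3.1. The part of RNA quality in these correlations was not tested. Acot4, a thioesterase of the Acot3 neighbourhood, changed by -0.32 from chow to HFD and by 0.13 from HFD to HFD+PE (SE 0.33), neither at an unadjusted p under 0.05.

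The wider pathway comprised 104 listed genes, of which 89 were measured. None passed the adjusted threshold. At an unadjusted p under 0.05, 4 were higher and 3 lower in HFD than in chow, or 7.87% of the 89 against 7.65% of all genes. For HFD+PE against HFD none was higher and 1 was lower (1.12%), and between HFD+PE and chow 5 were higher and 3 lower (8.99%). These shares were below or near those of all genes.

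Of the other Cyp4 P450s, 7 of 12 were measured, and only Cyp4v3 differed at an unadjusted p under 0.05. Cyp4v3, a fatty acid omega-hydroxylase, was lower in HFD than in chow by a log2 change of -0.37 (SE 0.10, unadjusted p = 0.0023 by limma) and in HFD+PE than in chow by -0.32 (SE 0.10, unadjusted p = 0.00649). Cyp4b1 changed by -0.17 and -0.01 (SE 0.13), and the brightest of them, Cyp4f1, by 0.11 and 0.03 (SE 0.08) against chow. Among the 4 electron donors, the P450 reductase Por was higher in HFD than in chow by 0.47 (SE 0.21, unadjusted p = 0.0409), Cyb5a, a cytochrome b5, changed by 0.18 (SE 0.16), and Cyb5b was lower in HFD+PE than in chow by 0.31, a change of -0.31 (SE 0.16, unadjusted p = 0.0736). Of the alcohol and aldehyde dehydrogenases, all 5 measured lay above chow in both other groups. Adh7 was at 1.09 (SE 0.39, unadjusted p = 0.0122) in HFD and Adh4 at 0.77 (SE 0.36, unadjusted p = 0.0458) in HFD+PE, while the brightest, Aldh9a1, was at 0.15 and 0.14 (SE 0.08).

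Peroxisomal dicarboxylate oxidation had 11 of 15 genes measured, of which 2 were higher in HFD+PE than in chow at an unadjusted p under 0.05. Ehhadh, the peroxisomal bifunctional enzyme, lay at 10.57 ± 0.29 in chow, 10.99 ± 0.32 in HFD and 11.27 ± 0.32 in HFD+PE (SD, n = 5). Its change was 0.42 (SE 0.17, unadjusted p = 0.0284) for HFD and 0.70 (SE 0.17, unadjusted p = 0.000965, adjusted p = 0.139 by limma) for HFD+PE, both against chow. Ech1, a dienoyl-CoA isomerase, was higher by 0.52 (SE 0.17, unadjusted p = 0.00632) in HFD+PE than in chow, and the brightest, Scp2, changed by -0.08 (SE 0.09). No other acyl-CoA thioesterase, of 9 measured among 12, had an unadjusted p under 0.05 in any comparison, and their changes between HFD+PE and chow ran from -0.19 to 0.16. Baat, which joins bile acids to amino acids, changed by -0.08 (SE 0.12) and Acot12, a cytosolic acetyl-CoA thioesterase, by 0.16 (SE 0.12).

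All 15 genes of coenzyme A synthesis and turnover were measured, and 1 differed. Ppcdc, a decarboxylase of coenzyme A synthesis, was lower in HFD than in chow by a change of -0.27 (SE 0.09, unadjusted p = 0.00924). Slc25a16, a mitochondrial carrier, changed by 0.41 and 0.42 (SE 0.21) against chow, and Csad, an enzyme of taurine synthesis, by -0.20 and -0.21 (SE 0.26). Among 15 of 16 PPAR receptors and cofactors, Pparg was higher in HFD than in chow by 0.35 (SE 0.16, unadjusted p = 0.0393). The coactivator Ppargc1b was lower in HFD+PE by changes of -0.39 against HFD (SE 0.15, unadjusted p = 0.0182) and -0.43 against chow (SE 0.15, unadjusted p = 0.0104). The transcription factor Creb3l3, the brightest, was within 0.03 of chow in both groups. Ppara itself, named for its role, changed by 0.38 and 0.49 (SE 0.27) against chow, with unadjusted p of 0.176 and 0.0862.

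The other hepatic PPAR-alpha targets, 23 measured of 24, did not share 1 direction. Between HFD+PE and chow, Acaa2 and Decr1, enzymes of mitochondrial beta-oxidation, were higher at an unadjusted p under 0.05, and Angptl4, a secreted inhibitor of lipoprotein lipase, was lower. Decr1 changed by 0.38 (SE 0.14, unadjusted p = 0.0147) and Angptl4 by -0.62 (SE 0.19, unadjusted p = 0.00427), and Angptl4 was at -0.47 (SE 0.19, unadjusted p = 0.0229) in HFD. Fabp1, the fatty acid binding protein with the highest signal of the list, changed by 0.06 and -0.08 (SE 0.13). The median change of the list between HFD+PE and chow was 0.19, and that of all genes 0.01.

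**Figure D4:**
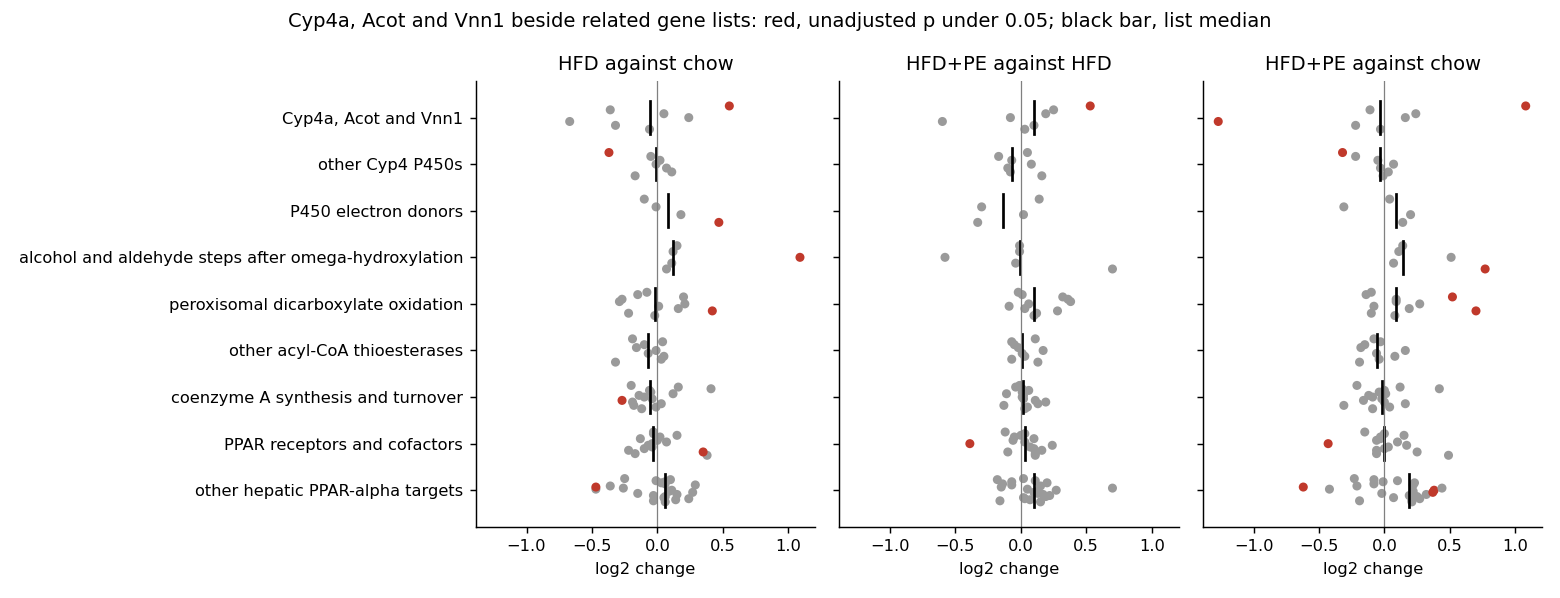
Log2 change of each measured gene (point) of Cyp4a, Acot and Vnn1 and of 8 related lists, in 3 comparisons, red where the unadjusted limma p is under 0.05, with the median of each list as a black bar. Vnn1 at 1.08 and Cyp4a8 at -1.27 are the outermost points between HFD+PE and chow, and no point passes the adjusted threshold.

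Markers of other cells and of liver zones moved beside these values. All 8 measured macrophage and Kupffer cell markers were lower in HFD+PE than in chow at an unadjusted p under 0.05, and 6 of them in HFD. Of all genes, 11.1% differed from chow at that p in HFD+PE and 7.65% in HFD. No marker passed the adjusted threshold. At an unadjusted p under 0.05, 3 of 8 stellate cell and matrix markers were lower in HFD+PE than in chow, and 1 of 5 endothelial markers. The pericentral hepatocyte markers lay above chow in HFD+PE in 6 of 6 genes, 2 of them, Glul and Lect2, at an unadjusted p under 0.05, with a median change of 0.39. Of the 6 periportal markers only Cyp2f4 lay above chow, with a median change of -0.30. At an unadjusted p under 0.05, Ass1 and Gls2 were lower and Cyp2f4 higher. Of 7 hepatocyte markers only Cyp2e1 was higher, and of 4 cholangiocyte markers 1 was higher and 1 lower. No lymphocyte, kidney, adipocyte or pancreas marker differed in this comparison, nor did an erythrocyte marker. The part of these markers in the Cyp4a8 values was not tested either.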

How the data were processed

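The authors deposited log2 signals per probe set, which the submitters' processing notes tie to Affymetrix Expression Console and RMA; the sources used here name no versions. All values were multiples of 0.1. Genes and lists were chosen with earlier results of these data known. The 57 control sets were left out; 20826 sets had 1 gene symbol, 436 several and 9780 none, in the platform's annotation. The brightest set stood for each of 14217 genes. The 3 array pairs without any difference above 2 on the log2 scale were averaged, giving 15 animals. Nothing else shows which arrays share an animal. limma 3.58.1 (R 4.3.3) fitted 1 mean per group with eBayes, with Benjamini-Hochberg adjustment over all genes, and was tested on simulated data. Members were also compared by exact permutation of 5 against 5 animals (252 splits). Correlations used 100000 permutations within groups. Arrays give no counts, so their number limits the precision. Named pathway genes are the brightest of each list and the 2 with the smallest moderated F p; Acaa2, Ppara and the marker genes were named outside that rule. Promoters and gene order are RefSeq's, from GRCr8; the sources used here do not name the build behind the array's annotation. Alternatives covered array counting, the replicate block, spike-in set, sample description number, probe set, centring, dim genes, variance prior, each animal left out, groups in the fit and, chosen after seeing the data, RNA quality, other probe sets and averaging the HFD pair alone.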

Additional observations from a re-analysis of the deposited data

Results flagged for a closer look

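In 36 groups of 5 animals (12 probe sets in 3 diets), 2 had an animal far from the other 4, and chance flags about 1 in 20 groups. Acot2 in HFD+PE had HFD+PE 1 at 8.7, with the gap to the next animal making up 0.75 of the range of the group. That animal also had the highest GAPDH 3′ minus 5′ signal of all, at 3.4, and the brightest spike-in controls. The part of array and RNA quality in its Acot2 value was not tested. The set shared by Cyp4a2 and Cyp4a3 in HFD had HFD 4 at 12.4, with a gap of 0.769 of the range.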

How the results depend on the processing

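Vnn1 between HFD+PE and chow stayed positive in all alternatives, at 0.91 to 1.19, with an adjusted p of 0.0148 to 0.245; it passed 0.05 only with 18 arrays counted as separate animals, with a replicate block, and with the HFD pair alone averaged, an alternative chosen after seeing the data, at 1.13 in each. Cyp4a8 in that comparison stayed between -1.57 and -0.96, with an unadjusted p under 0.05 in 27 of 27 limma settings, the main one included. Its adjusted p in those settings ran from 0.0918 to 0.480 and never passed 0.05. Genes past the adjusted threshold, 0 in the main analysis, numbered 145 between HFD+PE and chow with 18 arrays, 134 with the HFD pair alone averaged, 119 with the replicate block, 3 on arrays with dim spike-in controls alone and 0 to 26 with each animal left out (26 without HFD+PE 3-4). For the F test they were 19, 5, 29, 3 and 0 to 12. Between HFD and chow they were 1 on those dim arrays and 0 to 1 with an animal left out, and between HFD+PE and HFD 0 to 2. Replicate numbers did not clearly pair the arrays. Same-numbered arrays of different groups correlated at -0.31 to 0.19 (median 0.04), and differently numbered ones at -0.25 to 0.23 (median -0.02). Of 18 arrays, 5 correlated best with their own number. The number of these genes with an unadjusted p under 0.05 between HFD and chow was 0 without arrays of second description number 1, 2 with only those groups in the fit, 2 with the GAPDH covariate and 0 to 3 with an animal left out (0 without chow 3-4 or HFD 4, 3 without HFD 1-2). Between HFD+PE and HFD it was 2 with 18 arrays, 2 with the replicate block and 0 to 1 with an animal left out (0 without HFD 3 or HFD+PE 2). For the F test it was 1 with the GAPDH covariate and 1 to 2 with an animal left out. Pairs that passed by Pearson's r numbered 5 with group means kept and 1 with GAPDH removed. By Spearman's rho no pair passed with group means kept (smallest adjusted permutation p = 0.0578). With GAPDH removed, Cyp4a3 and Acot2 (adjusted permutation p = 0.00441) and Cyp4a1 and Cyp4a3 (0.0411) passed by rho. Signs turned only for small changes. Cyp4a1 between HFD and chow was 0.017 with 18 arrays and with the replicate block, and -0.135 to 0.025 with an animal left out. For HFD+PE against HFD it was -0.045 to 0.163, and against chow it was 0.017 in those 2 settings and with the HFD pair alone averaged, 0.117 on the dim arrays, 0.030 with the GAPDH covariate and -0.098 to 0.103. Acot2 between HFD and chow was -0.283 with the spike-in covariate, -0.073 on the dim arrays, -0.038 without second number 1, -0.033 as the mean of sets, -0.09 and -0.06 on its other sets, and -0.11 to 0.19 with an animal left out. Acot1 between HFD+PE and HFD was -0.175 to 0.075. Acot3 between HFD+PE and chow was 0.017 with 18 arrays, with the replicate block and with the HFD pair alone averaged, and -0.323 to 0.128. The cause was not tested. Of all genes, 1088, 384 and 1584 had an unadjusted p under 0.05 in the 3 comparisons. With only genes above the median level, 651, 197 and 1039 did; with 18 arrays, 725 did between HFD+PE and HFD. The standard errors, 0.15 for Cyp4a1 to 0.44 for Cyp4a8, limit the changes that 5 animals can show.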
